A study of Mus musculus with 22 samples.

Results

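Interferon-stimulated genes were followed in the brain of Ts1Cje mice, a Down syndrome model with a partial trisomy of mouse chromosome 16, and of their WT littermates. The members were a list of 39 genes known to respond to interferon, and 38 of them had a feature on the array among the 20768 features that could be named. Isg15 was not analysed here. Of the 38, Mx1 and Mx2 lie inside the triplicated segment of Ts1Cje and are described apart. The other 36 lie outside it and are called disomic members below, since both genotypes have the normal number of copies. Affymetrix Mouse Gene 1.0 ST arrays were run on cerebral cortex and on hippocampus, 1 array per region from each of 11 females that were 8 to 10 weeks old. The WT group held animals 60, 62, 65, 95 and 98, and the Ts1Cje group held animals 61, 63, 64, 87, 94 and 97. Both genotypes were littermates from Ts1Cje males crossed to C57Bl/6J females, and the labels name no treatment. In Ts1Cje the extra segment is joined to another chromosome and carries only part of the genes of the trisomy it models, and Mx1 and Mx2 of the C57BL/6J reference are listed by RefSeq as transcribed pseudogenes.

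Interferons are secreted proteins that warn cells of infection. The type I interferons bind the receptor pair Ifnar1 and Ifnar2, the kinases Jak1 and Tyk2 are activated, and Stat2 and Irf9 enter the nucleus as parts of the factor ISGF3, which binds the interferon-stimulated response element (ISRE) in the promoters of a large family of genes. Interferon gamma uses the receptors Ifngr1 and Ifngr2 and acts through the gamma-activated site (GAS). The genes for Ifnar1, Ifnar2, Ifngr2 and the interleukin receptor subunit Il10rb lie in the triplicated segment and so have an extra copy in Ts1Cje. In brain, microglia, endothelium and astrocytes are known to respond strongly to interferon.

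The response element that defines the family is shown first, because it is the sequence through which ISGF3 reads the signal. RefSeq promoter windows of GRCm38.p6, running from 250 bases before to 50 bases after an annotated start, were found for 28 of the 36 disomic members and for neither Mx1 nor Mx2. The ISRE core was searched as GAAANNGAAA on both strands, and on the opposite strand it reads as TTTC, any 2 bases, TTTC. It stood in the window of 14 of the 28 members (50%) and of 3.99% of all 27025 genes with a window. The GAS core, searched as TTCNNNGAA, stood in 9 of the 28 (32.1%) and in 9.55% of all genes. Bst2, Ifitm3, Igtp and Eif2ak2 held both, and the matches overlapped in Bst2 and Ifitm3. A match describes letters and is no measure of binding. The stretches below are from before the start, are written 5′ to 3′ on the gene's strand, and have the ISRE core in capitals. Ifit1 and Ifit3 are shown because both stood furthest from the group in the hippocampus of 1 Ts1Cje animal described below. Each holds the core in 2 places, as do Gbp3, Bst2 and Irgm1. In hippocampus that animal stood 0.197 above the median of the other Ts1Cje animals for Bst2 and 0.357 for Irgm1. No core stood in the windows of Irf7, Oasl2, Lgals3bp and Irf9, for which it stood 0.84, 1.00, 0.61 and 0.61 above. Trim30a and Gbp3 are shown because the same animal stood out in them in cortex, Rsad2 because it had a low unadjusted p in cortex, and Stat2 because it encodes a part of ISGF3 itself.
Ifit1, chr19:34640765-34640833, plus strand: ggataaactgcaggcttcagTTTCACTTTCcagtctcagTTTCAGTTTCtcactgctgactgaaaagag
Ifit3, chr19:34583353-34583436, plus strand: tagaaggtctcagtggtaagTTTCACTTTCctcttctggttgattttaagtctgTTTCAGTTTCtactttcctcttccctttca
Trim30a, chr7:104465200-104465249, minus strand: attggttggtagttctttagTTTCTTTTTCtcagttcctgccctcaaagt
Gbp3, chr3:142559979-142560034, plus strand: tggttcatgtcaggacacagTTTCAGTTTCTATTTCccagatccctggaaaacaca
Rsad2, chr12:26456543-26456592, minus strand: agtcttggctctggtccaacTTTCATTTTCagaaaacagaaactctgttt
Stat2, chr10:128270256-128270305, plus strand: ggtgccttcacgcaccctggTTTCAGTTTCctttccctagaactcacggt
In Gbp3 the capitals cover 2 overlapping matches. The core began 104 bases before the start of Ifit1, 156 before that of Ifit3, 36 before that of Trim30a, 45 before that of Gbp3, 120 before that of Rsad2 and 222 before that of Stat2.

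The values are log2 signals, so a difference of 1 is a doubling, and the level of one gene's probes says nothing about another gene's. Genotypes were compared within each region with limma, a linear model fitted to all 20768 named genes, and a gene was called where the p adjusted by the Benjamini-Hochberg method was under 0.05. Each array came from a separate animal, so these p-values measure the spread between animals. The labels of tissue matched the markers: the mean of 5 cortical markers was 9.85 to 10.38 in cortex and 8.34 to 8.51 in hippocampus, and the mean of 6 hippocampal markers was 8.25 to 8.55 in cortex and 9.13 to 9.52 in hippocampus. In both regions 2 arrays stood apart, those from animals 60 (WT) and 64 (Ts1Cje). In cortex their median correlation with the other arrays was 0.968 and 0.977, against 0.996 to 0.997 for the rest. In hippocampus it was 0.991 and 0.985, against 0.995 to 0.996. Results are therefore also given without both animals.

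Mx1 and Mx2 encode interferon-induced dynamin-like GTPases that block incoming viruses in strains with an intact gene. Along chromosome 16 the order is Pcp4, Dscam, Bace2, Mx1, Fam3b, Mx2, Tmprss2, Ripk4 and Prdm15. Neither gene was called in either region. Mx2 in hippocampus was the only case among the members in which the genotypes did not overlap. Its log2 signal was 4.24, 4.10, 4.27, 4.17 and 3.93 in WT animals 60, 62, 65, 95 and 98. It was 4.29, 4.90, 4.54, 4.79, 4.36 and 4.58 in Ts1Cje animals 61, 63, 64, 87, 94 and 97. The lowest Ts1Cje value, from animal 61, was just above the highest WT value, from animal 65. The fitted difference was 0.43 ± 0.111 (SE), a fold of 1.35, with an adjusted p of 0.626 by limma. Over the alternative settings the adjusted p ran from 0.288 to 1.00. In hippocampus 0.376% of all genes had every Ts1Cje animal above every WT animal, and 0.255% had every Ts1Cje animal below. Of the other 71 measured genes of the triplicated segment 34 had every Ts1Cje animal above, and their median log2 difference was 0.285.

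In cortex the same gene showed no separation. Mx2 measured 5.72, 5.48, 5.32, 5.20 and 5.10 in the WT animals and 5.36, 5.36, 5.00, 5.71, 5.14 and 5.59 in the Ts1Cje animals, in the same order as above. The groups overlapped almost completely, and their means were 5.36 ± 0.243 (SD, n = 5) and 5.36 ± 0.268 (SD, n = 6). The fitted difference was -0.0046 ± 0.146 (SE) with an adjusted p of 1.00 by limma, and it was 0.16 without animals 60 and 64. The other segment genes had a median difference of 0.362 in cortex, which the value of Mx2 did not reach. The change of the genotype difference from cortex to hippocampus was 0.43 ± 0.189 (SE) for Mx2, with an adjusted p of 1.00 by limma's interaction contrast. That fit left out the pairing of arrays by animal. With the animal as a fixed block the SE was 0.135 and the adjusted p 0.909 by limma.

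Mx1 was among the dimmest features, brighter than 6.3% of named genes in cortex and 6.8% in hippocampus, where Mx2 exceeded 16.6% and 13.4%. In cortex Mx1 measured 4.06, 3.97, 3.76, 4.14 and 4.07 in the WT animals and 3.92, 4.09, 4.57, 4.22, 4.24 and 4.03 in the Ts1Cje animals. Animals 64, 94 and 87 exceeded the WT range and the others lay within it. The difference was 0.18 ± 0.115 (SE), with an adjusted p of 1.00 by limma. It was 0.1 without animal 64, 0.119 without animal 65 and 0.114 without animals 60 and 64. In hippocampus Mx1 measured 3.83, 3.32, 3.14, 3.48 and 3.10 in the WT animals and 3.20, 3.71, 3.72, 3.72, 3.62 and 4.0 in the Ts1Cje animals. WT animal 60, whose array stood apart, was higher than 5 of the 6 Ts1Cje animals, and Ts1Cje animal 61 lay among the WT animals. The difference was 0.29 ± 0.151 (SE), with an adjusted p of 1.00 by limma. It was 0.401 without animal 60, 0.389 without animals 60 and 64, and 0.218 without animal 98.

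**Figure D1:**
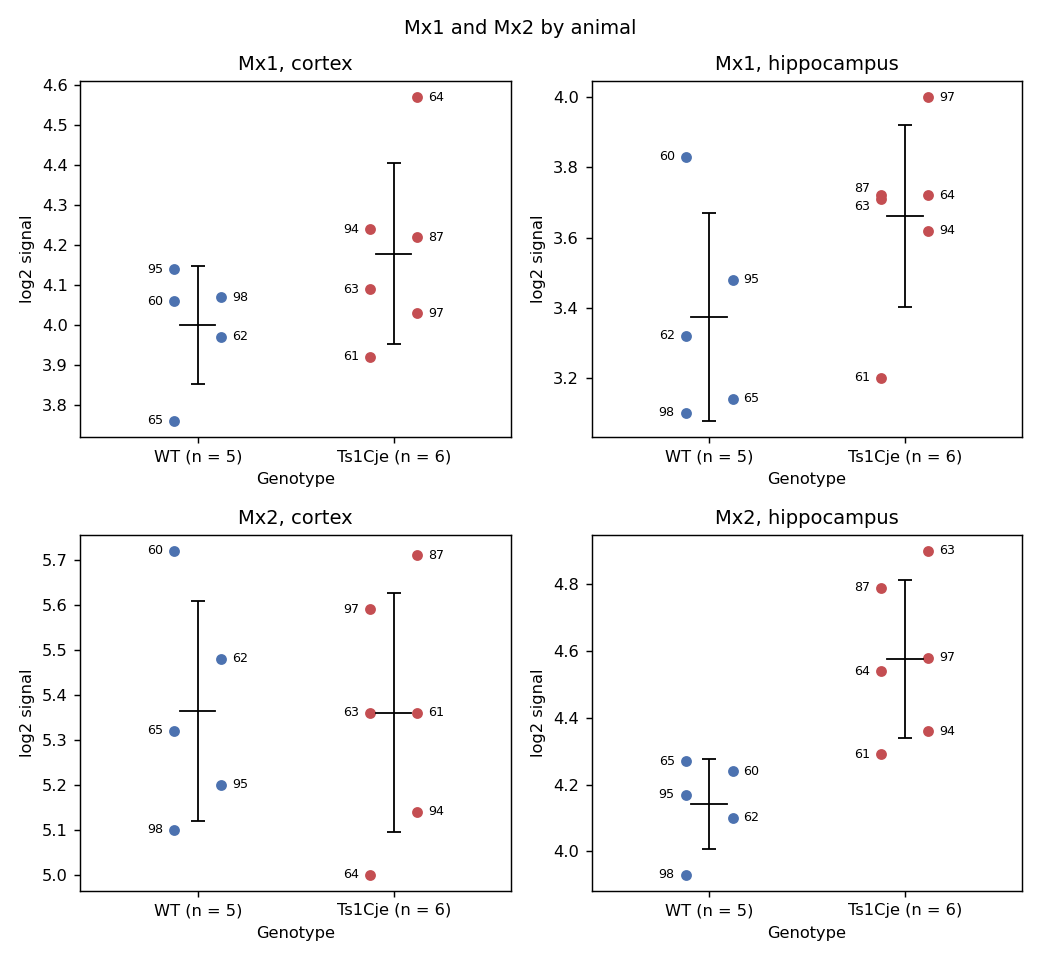
Log2 signal of Mx1 and Mx2 in each animal (points, numbered) of the WT (n = 5) and Ts1Cje (n = 6) groups, with the group mean and SD (lines), in cortex and hippocampus; each panel has its own axis, which does not start at 0. All Ts1Cje points lie above all WT points only for Mx2 in hippocampus, from 4.29 up against 4.27 down.

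Among the 36 disomic members no gene was called in cortex, in hippocampus, in the mean of an animal's pair of arrays, or for the difference between regions, by limma at an adjusted p under 0.05. Over all named genes the share called was 0.00482% in cortex, 0.111% in hippocampus, 0.053% in the animal means and 0% for the difference between regions. Of the 73 measured segment genes, which have an extra copy, 0 were called in cortex, 17 in hippocampus and 9 in the animal means. At an unadjusted p under 0.05 there were 5 of 36 disomic members in cortex (Lgals3bp, Irf9, Oasl2, Rsad2 and Ifit1, against 1.29% of all genes), none in hippocampus (against 3.7%) and 4 in the animal means (11.1%, against 1.7%). The cortical count moved with single animals: among all 38 members it was 2 without animal 63, 65 or 87, 3 without 62, 97 or 98, 7 without 61, and 10 without 64 or without 60 and 64 together. In hippocampus it was 1 of 38 (Mx2), 1 again without 65, 95 or 98, 2 without 63, 64, 87 or 97, 3 without 60, 62 or 94, and 4 without 61 or without 60 and 64. In the animal means it ran from 1 without 65 or 97, over 2 without 87 or 95, to 7 without 64, 8 without 61 and 9 without 60 and 64. Counts over all 20768 genes moved as well. The cortical one was 268 with all animals, 249 without 61, 767 without 64 and 1233 without 60 and 64. The hippocampal one was 769, 761, 1499 and 1750 in the same order, and that of the animal means 353, 331, 1052 and 1694. In no disomic member did all Ts1Cje animals lie on one side of all WT animals. Among all genes every Ts1Cje animal lay above every WT animal for 0.226% in cortex and below for 0.0722%.

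The direction of the differences was uneven. In cortex 33 of the 36 disomic members had a higher mean in Ts1Cje, against 48.6% of all genes, with a median log2 difference of 0.18 where all genes had -0.0031. In hippocampus it was 32 of 36, against 46.3% of all genes, with a median of 0.0971 against -0.0064. These genes vary together between animals, so they are not 36 independent observations. Many of the differences moved by over 1.5 times, or changed sign, when 1 animal was left out. In cortex this held for 21 of the 36 without animal 60, 16 without animal 64 and 12 without animal 87, and for 2 to 6 without any other animal. In hippocampus it held for 27 without animal 87, 20 without animal 60, 17 without animal 64 and 8 to 12 without any other.

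**Figure D2:**
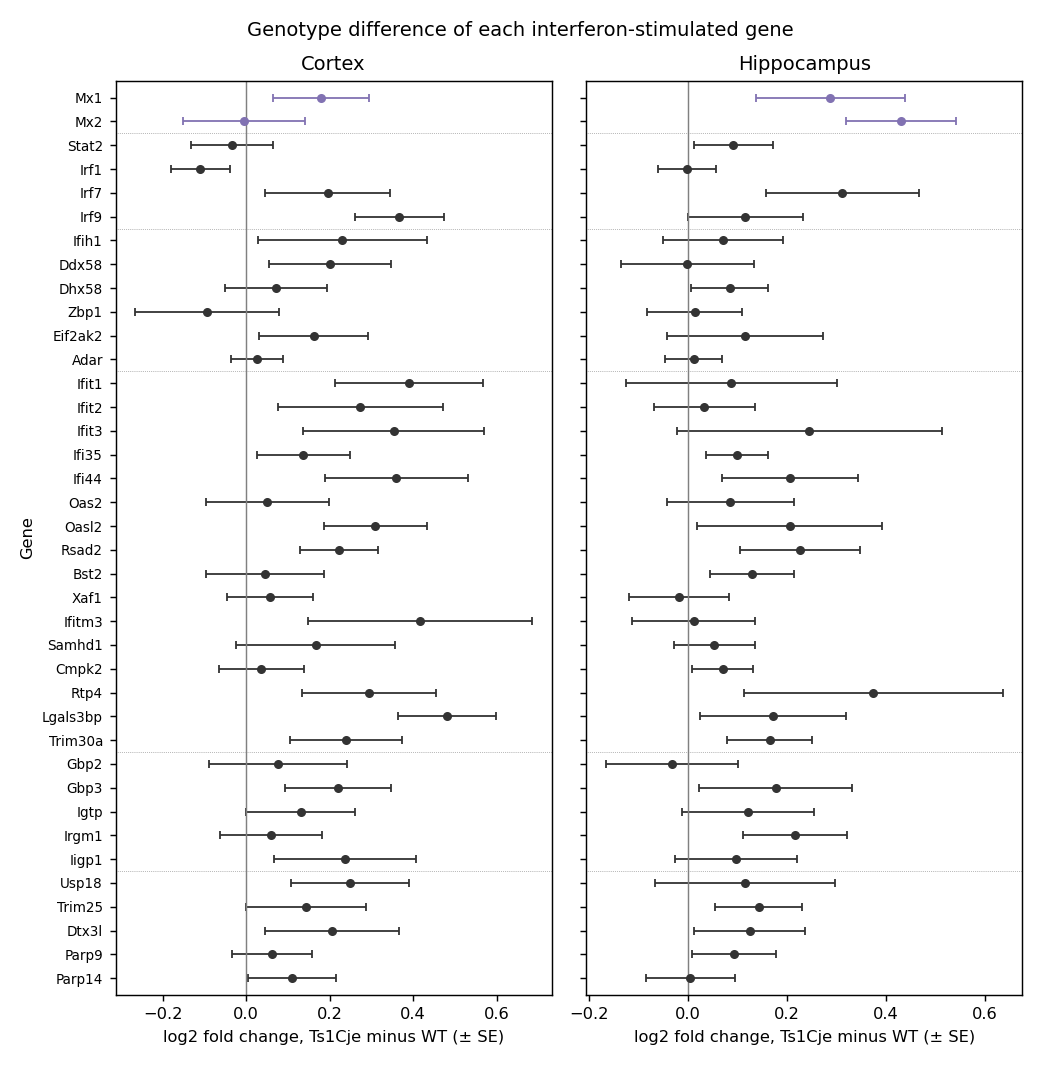
Log2 difference between Ts1Cje and WT (points) with its SE (bars) for the 38 measured members in cortex and hippocampus, Mx1 and Mx2 in purple, and dotted lines between the roles. Most points lie right of 0, from -0.11 for Irf1 to 0.48 for Lgals3bp in cortex, and no gene was called.

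The transcription factors carry and amplify the signal. Irf9, the DNA-binding subunit of ISGF3, measured 7.08, 7.54, 7.22, 7.34 and 7.43 in the cortex of WT animals 60, 62, 65, 95 and 98. Its Ts1Cje values ran from 7.45 over a median of 7.69 to 7.96, and 5 of 6 exceeded the WT range. The cortical difference was 0.37 ± 0.107 (SE), with an adjusted p of 1.00 by limma. In hippocampus the groups overlapped and the difference of Irf9 was 0.12 ± 0.116 (SE). Irf7, the factor that raises interferon production once induced, differed by 0.31 ± 0.155 (SE) in hippocampus and 0.19 ± 0.15 (SE) in cortex, and in both regions its highest value was that of animal 87. Without that animal the difference of Irf7 was 0.164 in hippocampus and 0.0791 in cortex. Stat2, the subunit of ISGF3 that activates transcription, differed by -0.03 ± 0.0988 (SE) in cortex and 0.09 ± 0.0798 (SE) in hippocampus. Its cortical WT values spanned only 8.60 to 8.64, and animal 64 lay far below them at 8.17. Irf1, which interferon gamma induces through the GAS element, had the lowest difference of all members in cortex, -0.11 ± 0.0703 (SE), with WT values of 6.4 to 6.63 and Ts1Cje values of 6.26 to 6.49. In hippocampus it differed by -0.0024 ± 0.0587 (SE).

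Antiviral effectors were the largest class, with 16 measured members. All 16 had a higher Ts1Cje mean in cortex (median 0.256) and 15 did in hippocampus (median 0.114). Lgals3bp, a secreted glycoprotein that binds galectins, had the lowest p of the disomic members in cortex. It measured 8.25, 8.12, 8.13, 8.23 and 8.06 in the WT animals, and from 8.21 over a median of 8.65 to 8.95 in Ts1Cje. Only animal 61 lay among the WT animals. The difference was 0.48 ± 0.118 (SE), a fold of 1.4, with an adjusted p of 1.00 by limma, which ran from 0.37 to 1.00 when single animals were left out. In hippocampus the groups of Lgals3bp overlapped and the difference was 0.17 ± 0.148 (SE).

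Oasl2, a relative of the oligoadenylate synthetases that sense double-stranded RNA, measured 7.19, 7.04, 6.91, 7.30 and 7.07 in WT cortex and 7.13 to 7.71 with a median of 7.37 in Ts1Cje cortex. Its difference was 0.31 ± 0.123 (SE), with an adjusted p of 1.00 by limma, and 3 of 6 Ts1Cje animals exceeded the WT range. Rsad2 (viperin), a radical enzyme that makes a chain-terminating nucleotide, measured 6.43, 6.04, 6.20, 6.29 and 6.13 in WT cortex and 6.19 to 6.62 with a median of 6.44 in Ts1Cje cortex. Its highest WT value came from animal 60 and its highest Ts1Cje value from animal 64. The difference of Rsad2 was 0.22 ± 0.0934 (SE) in cortex and 0.23 ± 0.121 (SE) in hippocampus, and both adjusted p-values were 1.00 by limma.

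The IFIT proteins bind viral RNA that lacks the host's cap methylation. Ifit1 measured 6.57, 7.14, 6.73, 7.07 and 6.95 in WT cortex and 6.73 to 7.78 with a median of 7.30 in Ts1Cje cortex, a difference of 0.39 ± 0.176 (SE) with an adjusted p of 1.00 by limma. In hippocampus Ifit1 differed by 0.09 ± 0.214 (SE), and by -0.08 without animal 87. Ifit3 differed by 0.35 ± 0.216 (SE) in cortex and 0.25 ± 0.268 (SE) in hippocampus, and Ifit2 by 0.27 ± 0.197 (SE) and 0.03 ± 0.102 (SE). In cortex animal 60 was the lowest of all for the 3 genes, at 6.64 for Ifit3 and 6.19 for Ifit2, and the remaining WT values of Ifit2 were 7.05 to 7.33. Without animal 60 the cortical difference was 0.147 for Ifit3 and 0.063 for Ifit2. Without animal 87 the hippocampal difference of Ifit3 was 0.0332.

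Of the other effectors Ifi44, an interferon-induced cytoplasmic protein, differed by 0.36 ± 0.172 (SE) in cortex and 0.21 ± 0.138 (SE) in hippocampus. Rtp4, a receptor-transporting protein that interferon induces strongly, differed by 0.29 ± 0.161 (SE) and 0.37 ± 0.262 (SE). In the hippocampus WT animal 60 lay at 4.91 where the other WT animals had 5.90 to 6.11. The difference of Rtp4 there was the highest of the disomic members with all animals, but it was 0.151 without animal 60 and 0.204 without animal 87. The cortical one was 0.194 without animal 60. Trim30a, a ubiquitin ligase that restrains inflammatory signalling, differed by 0.24 ± 0.134 (SE) and 0.16 ± 0.0853 (SE). Ifi35, an interferon-induced leucine zipper protein, differed by 0.14 ± 0.111 (SE) and 0.10 ± 0.0626 (SE).

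Ifitm3, which blocks virus fusion in endosomes, had a cortical difference of 0.42 ± 0.268 (SE) and a hippocampal one of 0.01 ± 0.124 (SE). In cortex WT animal 60 lay at 7.57 and the other WT animals at 8.75 to 8.82, and without animal 60 the difference was 0.171. Bst2 (tetherin), which holds budding virus at the cell surface, differed by 0.05 ± 0.142 (SE) in cortex and 0.13 ± 0.0858 (SE) in hippocampus. Samhd1, which depletes nucleotides, differed by 0.17 ± 0.19 (SE) and 0.05 ± 0.0821 (SE), and Oas2, an oligoadenylate synthetase, by 0.05 ± 0.146 (SE) and 0.09 ± 0.128 (SE). Cmpk2, a mitochondrial nucleotide kinase, and Xaf1, a factor that favours cell death, had cortical differences of 0.04 ± 0.102 (SE) and 0.06 ± 0.102 (SE). In hippocampus the difference was 0.07 ± 0.062 (SE) for Cmpk2 and -0.02 ± 0.101 (SE) for Xaf1.

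The sensors recognise foreign nucleic acid. In cortex 5 of the 6 had a higher Ts1Cje mean, as did 5 in hippocampus, with medians of 0.117 and 0.0413. The RNA helicases Ifih1 (MDA5) and Ddx58 (RIG-I) differed by 0.23 ± 0.203 (SE) and 0.20 ± 0.146 (SE) in cortex. In hippocampus they differed by 0.07 ± 0.121 (SE) and -0.0016 ± 0.134 (SE). Eif2ak2 (PKR), the kinase that halts translation on binding double-stranded RNA, differed by 0.16 ± 0.131 (SE) and 0.11 ± 0.158 (SE). Dhx58 (LGP2), a regulator of those helicases, differed by 0.07 ± 0.122 (SE) and 0.08 ± 0.078 (SE). Adar, which edits double-stranded RNA, differed by 0.03 ± 0.0626 (SE) and 0.01 ± 0.0573 (SE). Zbp1, a receptor for left-handed nucleic acid, differed by -0.09 ± 0.172 (SE) in cortex, where WT animal 60 at 7.06 stood far above the other WT values of 6.18 to 6.26, and by 0.07 without that animal.

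The GTPases attack the compartments of intracellular microbes, and interferon gamma induces them most strongly. All 5 had a higher Ts1Cje mean in cortex (median 0.131) and 4 did in hippocampus (median 0.121). Irgm1, which regulates the family, had the lowest p of the disomic members in hippocampus. It measured 6.34, 6.76, 6.55, 6.53 and 6.65 in the WT animals, and 6.51 to 7.12 with a median of 6.78 in Ts1Cje. The difference was 0.22 ± 0.105 (SE), with an adjusted p of 1.00 by limma, and 4 of 6 Ts1Cje animals exceeded the WT range. In cortex Irgm1 differed by 0.06 ± 0.122 (SE). The guanylate-binding proteins Gbp2 and Gbp3 differed by 0.08 ± 0.165 (SE) and 0.22 ± 0.127 (SE) in cortex and by -0.03 ± 0.134 (SE) and 0.18 ± 0.155 (SE) in hippocampus. Igtp (Irgm3) and Iigp1 (Irga6), which load onto vacuoles that hold parasites, differed by 0.13 ± 0.13 (SE) and 0.24 ± 0.171 (SE) in cortex. In hippocampus they differed by 0.12 ± 0.133 (SE) and 0.10 ± 0.124 (SE).

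The last class handles ubiquitin, ISG15 and ADP-ribose marks, and all 5 of its members had a higher Ts1Cje mean in both regions, with medians of 0.143 in cortex and 0.114 in hippocampus. Usp18, which removes ISG15 from proteins and shuts down the type I receptor, differed by 0.25 ± 0.142 (SE) in cortex and 0.11 ± 0.181 (SE) in hippocampus, and by -0.04 in hippocampus without animal 87. Trim25, the ubiquitin ligase that activates RIG-I, differed by 0.14 ± 0.143 (SE) and 0.14 ± 0.0881 (SE). Dtx3l and Parp9, which work as a complex, differed by 0.20 ± 0.16 (SE) and 0.06 ± 0.0957 (SE) in cortex, and by 0.12 ± 0.112 (SE) and 0.09 ± 0.0852 (SE) in hippocampus. Parp14, a mono-ADP-ribosyltransferase, differed by 0.11 ± 0.105 (SE) in cortex and 0.0035 ± 0.09 (SE) in hippocampus.

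**Figure D3:**
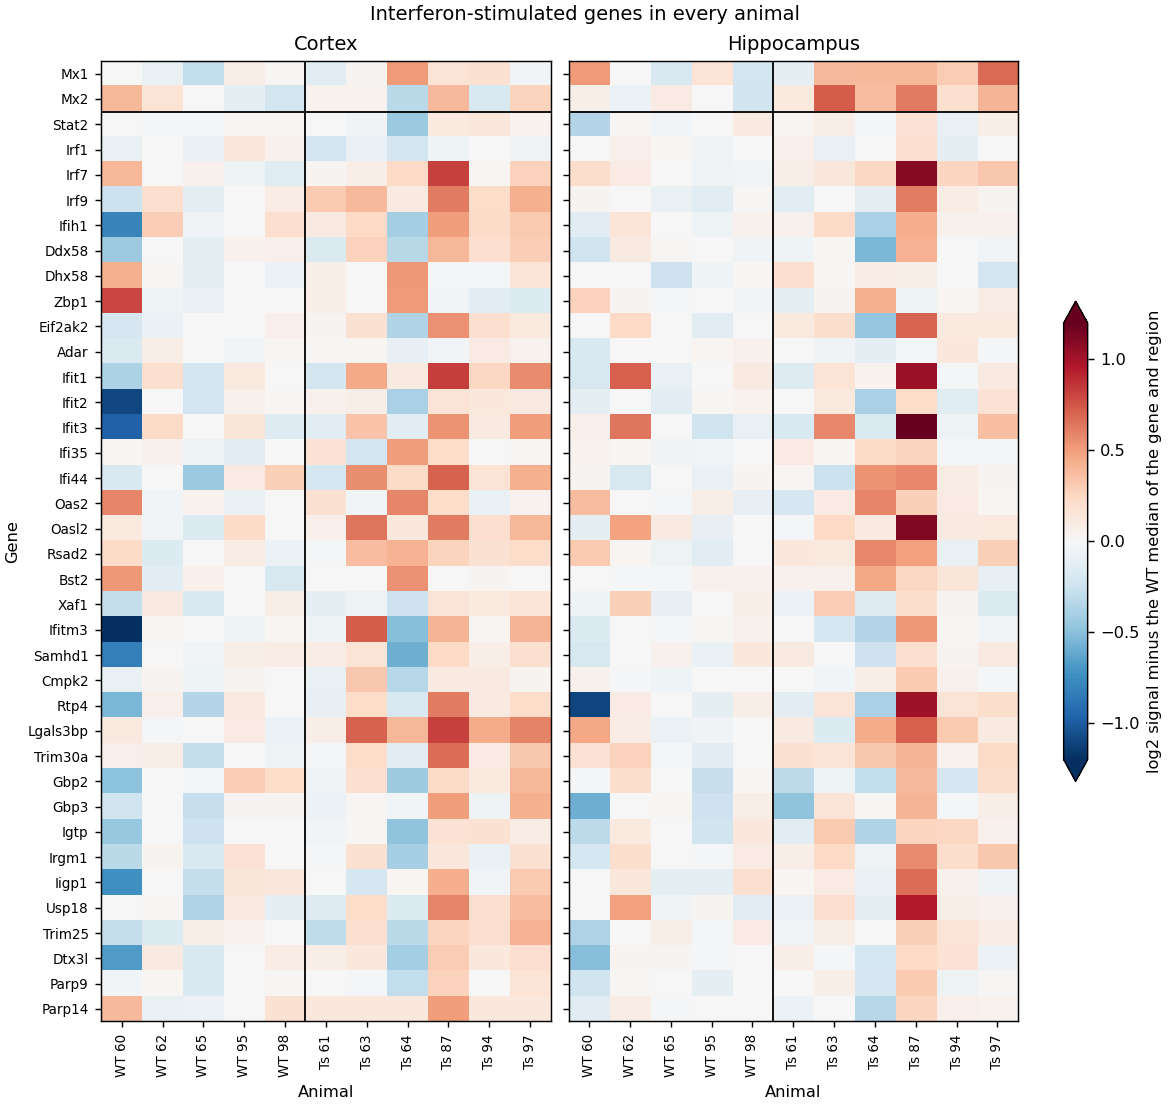
Log2 signal of each member (rows, grouped by role, Mx1 and Mx2 above the line) in each animal (columns, WT left of the line) minus the WT median of that gene in that region; colours beyond 1.2 are cut off. Ts1Cje animal 87 is red across most rows in both regions, and animals 60 and 64 mix red and blue rows, with Zbp1 at 7.06 and Ifitm3 at 7.57 in the cortex of animal 60.

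The mean over the 36 disomic members gave 1 value per animal and region. In cortex it was 6.92, 7.13, 7.0, 7.16 and 7.14 in WT animals 60, 62, 65, 95 and 98. It was 7.10, 7.29, 7.05, 7.47, 7.22 and 7.35 in Ts1Cje animals 61, 63, 64, 87, 94 and 97. Animals 63, 87, 94 and 97 exceeded the WT range and animals 61 and 64 lay within it. The group means were 7.07 ± 0.107 (SD, n = 5) and 7.25 ± 0.158 (SD, n = 6), a difference of 0.176 on the log2 scale, above the pooled SD of 0.138. It was 0.131 without animal 87 and 0.178 without animals 60 and 64, with 33 and 34 of 36 members higher.

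In hippocampus the mean was 6.41, 6.62, 6.48, 6.44 and 6.53 in the same WT animals and 6.48, 6.58, 6.48, 6.97, 6.55 and 6.57 in the same Ts1Cje animals. Only animal 87 exceeded the WT range. The group means were 6.49 ± 0.0839 (SD, n = 5) and 6.60 ± 0.185 (SD, n = 6), and their difference of 0.111 was below the pooled SD of 0.149. Without animal 87 it dropped to 0.038, with 25 of 36 members higher and every remaining Ts1Cje value, 6.48 to 6.58, under the WT value of 6.62 from animal 62. Without animals 60 and 64 it was 0.116. Over the mean of both arrays of each animal the difference was 0.144, and 0.084 without animal 87.

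**Figure D4:**
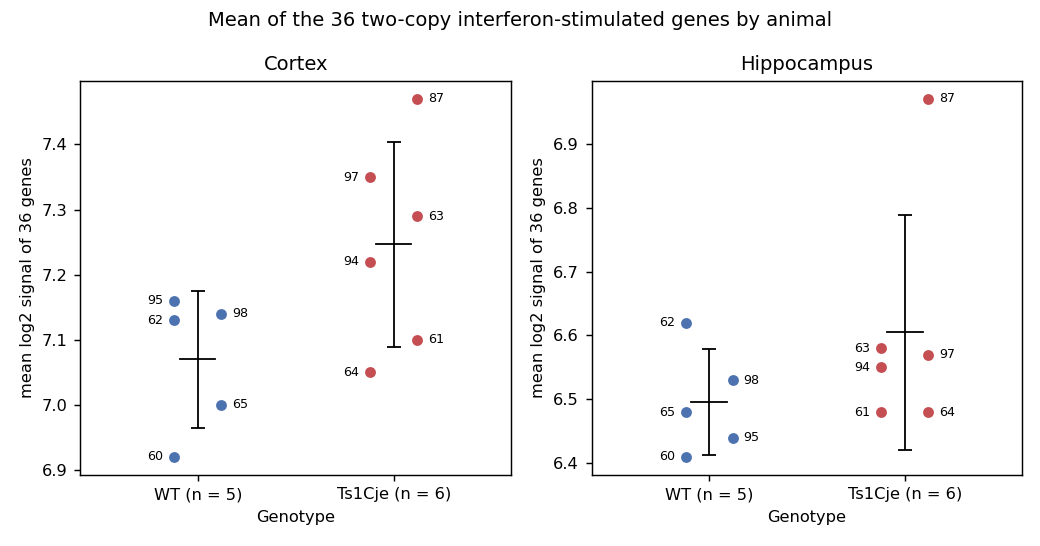
Mean log2 signal of the 36 disomic members in each animal (points, numbered) of the WT (n = 5) and Ts1Cje (n = 6) groups, with group mean and SD (lines); the axes do not start at 0. In cortex 4 of 6 Ts1Cje animals exceed all WT animals, and in hippocampus only animal 87 does, at 6.97.

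Ts1Cje animal 87 had the highest mean in both regions and was looked at more closely for that reason, so its values are a description of 1 animal. It was the highest of all 11 animals for 19 of 36 disomic members in cortex and 28 of 36 in hippocampus. Over all genes it was the highest for 7.14% and 7.24%. Against the median of the other 5 Ts1Cje animals, its hippocampal signal was higher for 34 of 36 members by a median of 0.335, and its cortical signal for 32 of 36 by a median of 0.206. Over all genes 46.2% and 37.7% were higher. The distance was smaller on a wider list of 62 other measured interferon-stimulated genes. There 42 of 62 were higher in hippocampus, by a median of 0.0836, and 38 of 62 in cortex, by a median of 0.027. A distance above 0.5 was reached by 13 of 36 members in hippocampus and 5 of 36 in cortex, against 0.742% and 0.342% of all genes.

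In hippocampus the greatest distance was that of Ifit3. It measured 8.28 in animal 87 and 6.72 to 7.48 in the other Ts1Cje animals, a distance of 1.44 and a fold of 2.71 against their median. Ifit1 stood 1.00 above, Oasl2 1.00, Usp18 0.90, Rtp4 0.87, Irf7 0.84, Iigp1 0.65 and Lgals3bp 0.61. In cortex the order began with Irf7, which measured 7.25 in animal 87 and 6.44 to 6.71 in the others, a distance of 0.74. Ifit1 followed at 0.58, Trim30a at 0.57, Gbp3 at 0.53, Rtp4 at 0.51, Ifi44 at 0.48, Iigp1 at 0.44 and Ifit3 at 0.43. Only 14 of all genes stood over 0.5 above the median in both regions, and Ifit1, Irf7 and Rtp4 were among them. The others were Vmn2r12, Gm10288, Rps6, Olfr533, Gm13212, Rpl29, Gm5512, Zfp991, Fbxw26, Sult2a2 and 1810037I17Rik, none of them on a list of interferon-stimulated genes used here. Adar, Zbp1 and Dhx58 were within 0.1 of the median in both regions. Mx1 was 0.13 above in cortex and 0.0033 in hippocampus, and Mx2 was 0.36 and 0.25 above. Among WT hippocampi animal 62 was the highest for Ifit3 (7.54), Ifit1 (6.92), Oasl2 (7.24) and Usp18 (6.74), above every Ts1Cje animal but 87.

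**Figure D5:**
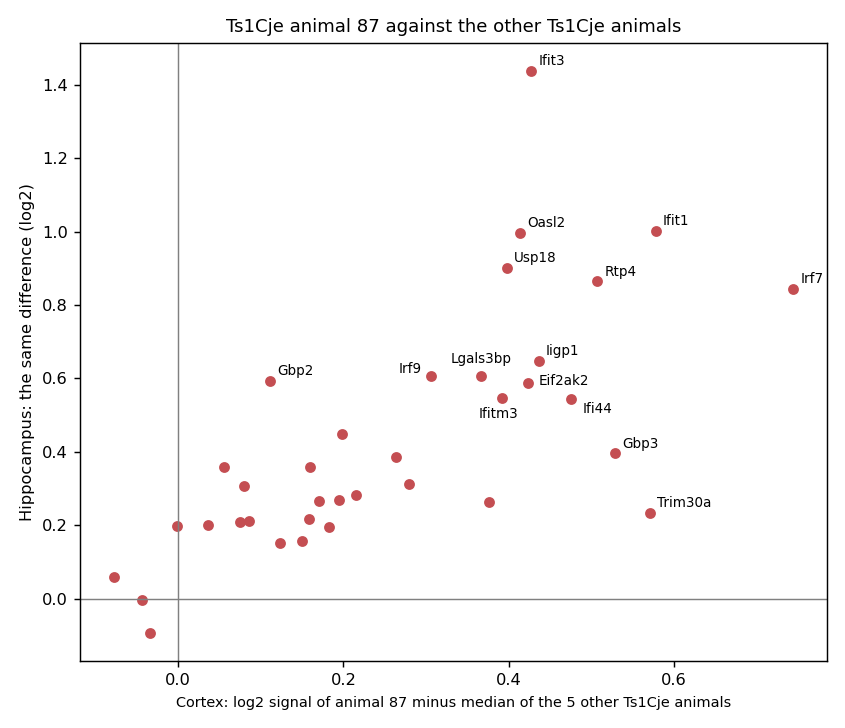
Log2 signal of Ts1Cje animal 87 minus the median of the other 5 Ts1Cje animals in cortex (horizontal) and hippocampus (vertical); each point is 1 of the 36 disomic members. Most points lie up and right of 0, with Ifit3 at 1.44 in hippocampus and Irf7 at 0.74 in cortex.

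Cell type markers were compared in the same way, since in bulk tissue more cells of a type and more RNA per cell cannot be told apart. In the hippocampus of animal 87, 11 of 12 microglial markers lay above the median of the other Ts1Cje animals, by a median of 0.124. Their mean was 8.13 in animal 87, 7.86 to 8.06 in the others and 7.97 to 8.09 in WT. All 8 endothelial markers (median 0.0828) and all 6 oligodendrocyte markers (median 0.148) were above as well, as were 5 of 6 meningeal markers (median 0.122), and all 8 choroid plexus markers were below (median -0.125). Of 12 leukocyte markers 5 were above, with a median of -0.0344, and of 6 astrocyte markers 4, with a median of 0.0717. In cortex 5 of 12 microglial markers (median -0.0166), 6 of 8 endothelial markers (median 0.118) and 5 of 12 leukocyte markers were above. So were 3 of 6 astrocyte markers in cortex (median -0.0275). Their part in the values of animal 87 was not tested.

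Between genotypes no marker list had a called gene by limma. Microglial markers had a higher Ts1Cje mean for 9 of 12 in cortex (median 0.091) and 4 of 12 in hippocampus (median -0.0318). Their mean ran from 8.54 to 8.76 in WT and from 8.58 to 8.85 in Ts1Cje cortex, and from 7.97 to 8.09 and 7.86 to 8.13 in hippocampus. Endothelial markers were higher for 6 of 8 in cortex (median 0.0471) and 2 of 8 in hippocampus (median -0.0273), and leukocyte markers for 4 of 12 and 10 of 12. Meningeal markers were higher for 6 of 6 in cortex (median 0.0844) and 1 of 6 in hippocampus (median -0.14). Oligodendrocyte markers were higher for 5 of 6 in cortex (median 0.0534) and 6 of 6 in hippocampus (median 0.0531). Astrocyte markers were higher for 1 of 6 in cortex (median -0.0182) and 0 of 6 in hippocampus (median -0.0701). Choroid plexus markers were higher for 3 of 8 and 2 of 8, neuronal markers for 3 of 5 and 3 of 5, and blood markers for 2 of 2 and 2 of 2. In cortex the microglial, endothelial, meningeal, oligodendrocyte and blood markers went in the direction of the interferon-stimulated genes. In hippocampus the leukocyte, oligodendrocyte and blood markers did. Astrocyte markers went the other way in both regions, leukocyte markers in cortex, and microglial, endothelial, meningeal and choroid plexus markers in hippocampus. Neuronal markers had medians just above 0, at 0.0085 in cortex and 0.0194 in hippocampus. Cortical choroid plexus markers were mixed, with a median of -0.0142 and a difference of 0.089 in their mean. The part of these markers in the differences of the interferon-stimulated genes was not tested.

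Animals 60 and 64 shifted the members unevenly. Against the median of the other animals of their genotype, the cortex of animal 60 was higher by 0.83 for Zbp1, 0.60 for Oas2, 0.59 for Bst2 and 0.46 for Dhx58, and that of animal 64 by 0.54, 0.55, 0.54 and 0.52. Both were lower for Ifitm3 (-1.24 and -0.92), Ifit3 (-1.05 and -0.47) and Samhd1 (-0.85 and -0.75). The 7 genes of this comparison were chosen with their values in view. Animal 60 was the lowest of 11 for 14 disomic members in cortex, against 24.6% of all genes, and the highest for 1, against 33.6%. Its hippocampal array was the lowest for 10 of 36, against 8.69% of all genes, and the highest for 0, against 15.7%.

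The members varied together between animals. After the genotype mean was subtracted, the correlation of a disomic member with the mean of the other 35 had a median of 0.756 over the 11 animals in cortex and 0.681 in hippocampus. Without animal 87 the medians were 0.704 and 0.494. The points share their array, so part of it can be a property of the array. The correlation was negative in cortex for Ifi35, Dhx58, Oas2, Rsad2, Bst2 and Zbp1, and without animals 60 and 64 only for Bst2, Zbp1 and Adar. Among genes outside the list, those most like the members' mean in cortex were Rbm34 (0.964), Hexim2 (0.946), Slfn5 (0.936), Rnf213 (0.919), Ap1b1 (0.905) and Sp100 (0.901). In hippocampus they were Rnf213 (0.931), Acss2 (0.921), Enpp6 (0.911), Lima1 (0.908), Gsr (0.907) and Wdr49 (0.898). Rnf213 was near the top in both regions, and without animal 87 its correlation was 0.898 in cortex and 0.784 in hippocampus, while that of Wdr49 was 0.248. These genes were picked as the highest of all, so their high values restate the choice. The cortical genes had hippocampal correlations of 0.437 (Rbm34), 0.0969 (Hexim2), 0.73 (Slfn5), 0.057 (Ap1b1) and 0.877 (Sp100). Cortical correlations of the hippocampal genes were 0.697 (Acss2), 0.671 (Enpp6), 0.711 (Lima1), 0.731 (Gsr) and -0.491 (Wdr49).

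Between regions the members kept no common order. After each array was centred on its median, 16 of 36 disomic members were lower in the hippocampus than in the cortex of WT mice, with a median difference of 0.0202. Lgals3bp was higher in hippocampus by 0.70 ± 0.203 (SD, n = 5) in WT and 0.41 ± 0.347 (SD, n = 6) in Ts1Cje. Igtp was lower in the hippocampus of every animal, with differences of -0.54 ± 0.189 (SD, n = 5) in WT and -0.53 ± 0.132 (SD, n = 6) in Ts1Cje. Mx2 was lower in the hippocampus of all 5 WT animals and of 4 of 6 Ts1Cje animals, with mean differences of -0.60 ± 0.188 (SD) and -0.14 ± 0.258 (SD). The regions were extracted with different kits, so region and kit cannot be told apart in these values. The genotype difference was smaller in hippocampus than in cortex for 24 of 36 disomic members, against 53.4% of all genes, with a median change of -0.0609. None was called by limma, and Mx2 was the only member with an unadjusted p under 0.05. That fit treated the pair of arrays of an animal as independent. With the animal as a random or a fixed block, 2 and 3 of the 38 members had such a p, against 934 and 868 of 20768 genes. No member was called there either.

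The rest of the pathway was followed on lists of named genes. Of 17 measured interferon genes none was called, 4 had a higher Ts1Cje mean in cortex and 9 in hippocampus. The interferon genes of lowest p in cortex had negative differences. Ifna9 differed by -0.31 ± 0.214 (SE), Ifna15 by -0.27 ± 0.241 (SE) and Ifna14 by -0.19 ± 0.173 (SE), each with an adjusted p of 1.00 by limma. Over the settings they ran from -0.4 to -0.07, -0.45 to -0.03 and -0.28 to -0.02. WT animal 60, whose array stood apart, measured 7.51 for Ifna9 and 7.18 for Ifna14, and the next WT values were 6.45 and 6.39. In hippocampus the lowest p was that of Ifna12, with a positive difference of 0.33 ± 0.138 (SE) and an adjusted p of 1.00 by limma. Ifnb1, the type I interferon most cells make first, differed by -0.05 ± 0.24 (SE) in cortex and 0.18 ± 0.0921 (SE) in hippocampus. In animal 87 only 2 of the 17 interferon genes lay above the median of the other Ts1Cje animals in cortex and 7 did in hippocampus.

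The list of receptors and signal transducers held 10 genes, 4 of them in the segment. In hippocampus Ifnar1 was 8.68 to 8.84 in WT and 8.96 to 9.35 in Ts1Cje, a rise of 0.46 ± 0.0706 (SE) with an adjusted p of 0.0403 by limma. The call was lost when any single animal but 64 was left out, with adjusted p-values from 0.0966 to 0.173, and it held without 60 and 64 together (0.00421). In cortex Ifnar1 differed by 0.48 ± 0.103 (SE), Ifngr2 by 0.50 ± 0.0893 (SE) and Ifnar2 by 0.59 ± 0.159 (SE). Their adjusted p-values were 0.6, 0.346 and 1.00 by limma, and none was called in cortex with 1 animal left out. Without animals 60 and 64 they were 0.0029, 0.00602 and 0.0396, and that of Il10rb was 0.00493. With quantile normalization Ifnar1 and Ifngr2 were called in cortex by limma (adjusted p 0.0185 and 0.0151). Both were also called with the animal as a random block (0.0116 and 0.00661). Array weights gave a cortical call for all 4 segment genes of the list. Median centring, a trended robust prior, a filter on dim genes and the use of every feature gave none. In the animal means Ifngr2 differed by 0.43 ± 0.0596 (SE), with an adjusted p of 0.0305 by limma. With single animals left out that p ran from 0.0118 to 0.124. In hippocampus Ifngr2 differed by 0.35 ± 0.0603 (SE), with an adjusted p of 0.0672, and Il10rb by 0.38 ± 0.0917 (SE), with an adjusted p of 0.498. Ifngr2 was called there by limma with a trended robust prior (0.0205), quantile normalization (0.0489), array weights (0.011) and a filter on dim genes (0.028). Its adjusted p was 0.0505 with median centring and 0.188 with the animal as a random block. The 6 genes of this list outside the segment had a median difference of 0.0377 in cortex and 0.008 in hippocampus, and none was called.

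Of 17 genes of nucleic acid sensing and signalling 9 had a higher Ts1Cje mean in each region, and of 11 inhibitors of the pathway 6 in cortex and 5 in hippocampus, with no call. Among the sensing genes Sting1, the adaptor of DNA sensing, differed by 0.16 ± 0.0725 (SE) in cortex, with an unadjusted p of 0.048, and Cgas, which makes its ligand, by -0.20 ± 0.0911 (SE). A wider list of 62 other measured interferon-stimulated genes had a higher Ts1Cje mean for 43 in cortex and 40 in hippocampus, with medians of 0.0523 and 0.0396 and no call. Its lowest p in cortex belonged to Ifi27, a mitochondrial protein strongly induced by type I interferon, whose lowest Ts1Cje value of 8.548 was just above the highest WT value of 8.546. Its difference was 0.29 ± 0.0939 (SE), with an adjusted p of 1.00 by limma. In hippocampus it belonged to Cxcl10, a chemokine that attracts T cells, which differed by 0.19 ± 0.076 (SE), with an adjusted p of 1.00.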

How the data were processed

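RMA produced the values, per the submitters' processing notes, and the deposited values are log2 signals, 1 per array for each of 21225 features labelled by Entrez gene number. The sources used here give neither an RMA version nor an annotation build, and do not say whether cortex and hippocampus arrays were normalized in 1 set. Features were named through their Entrez number in the RefSeq table of GRCm38.p6 (20768 named, 457 unnamed and left out). The labels give the extraction kits, which differed by region, and an RNA integrity number above 9. For both arrays of WT animal 60 the title gives number 60 and the description 61, which is also the number of a Ts1Cje animal; both fields give the genotype as WT, and the title's number was used.

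Each region (11 arrays) was fitted alone in limma 3.58.1 (R 4.3.3; lmFit, eBayes, two-sided), with Benjamini-Hochberg adjustment over all 20768 genes. The animal means, and the genotype by region interaction on all 22 arrays, were fitted as well. No dim genes were removed. Values of each animal's pair of arrays correlated after removal of group means, with a median r of 0.264 (0.0531 to 0.762 over the 11 animals), and the pairing comes from the labels. The code was tested on simulated data: of 200 genes changed by 1 on the log2 scale, 79% were recovered in cortex and 95.5% in hippocampus. False calls numbered 12 and 9. The largest difference among the members was 0.48, and recovery of changes of that size was not simulated. The number of arrays limits the precision. Identical values on 3 or more arrays were found for 2 of the 38 members in cortex and 9 in hippocampus, against 19.7% and 27.1% of all genes.

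Members, gene lists and settings were chosen with earlier results of these data known. Named were Mx1 and Mx2, the disomic members with the 8 lowest p, the 4 lowest differences and the 8 largest distances of the highest animal per region, every other member by role, up to 3 genes of lowest p per pathway list, and the genes most like the members' mean. Alternatives were leaving out each animal, leaving out animals 60 and 64, median centring, quantile normalization, a trended robust prior, array weights, a filter on dim genes, every feature, a threshold of 0.1, animal as a block, a median over members, and bright members only. A gene of the receptor and signalling list is not reported here by itself.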

Additional observations from a re-analysis of the deposited data

Results flagged for a closer look

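In groups of 5 or 6 animals 1 value was set against the others by its gap to the nearest one, divided by the range of the group (Dixon's ratio, 95% limit). Of 158 groups 31 had such a value. Chance gives about 1 in 20 for genes picked without their values, but many of these were picked for a low p or for the distance of animal 87, and the members vary together, so the number cannot be read against that rate. Animal 87 was the high value of the Ts1Cje group for Irf7 in cortex (0.666) and, in hippocampus, for Irf7 (0.767), Ifit1 (0.746), Oasl2 (0.776), Usp18 (0.709), Iigp1 (0.768), Aim2 (0.631) and the mean of the disomic members (0.786). Irf7, Ifit1, Oasl2, Usp18 and Iigp1 were among the genes named for the distance of that animal, so their ratios restate the choice. It was the low value for Ifna14 in cortex (0.639). WT animal 62 was the high value for Usp18 in hippocampus (0.749).

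WT animal 60, whose arrays stood apart, was the high value in cortex for Zbp1 (0.909), Ifna9 (0.804), Ifna14 (0.771) and Cgas (0.838). It was the low value in cortex for Ifngr2 (0.822), Ifnar1 (0.725), Ifnar2 (0.86) and Sting1 (0.843), and in hippocampus for Trim25 (0.736), Rtp4 (0.83) and Aim2 (0.749). Ts1Cje animal 64 was the high value for Zbp1 (0.636) and Socs3 (0.63) in cortex and for Ptpn6 (0.821) and Socs1 (0.648) in hippocampus. It was the low value in cortex for Stat2 (0.688) and Ifnar1 (0.681).

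The remaining values were all in cortex. WT animal 65 was low for Parp9 (0.743) and WT animal 98 high for Ptpn1 (0.783). Ts1Cje animal 97 was low for Cgas (0.63) and Ts1Cje animal 63 high for Myd88 (0.629).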

How the results depend on the processing

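No member was called in any comparison under any of the settings tried, and a replicate block for the animal, random or fixed, which uses the pairing of arrays, also gave 0 calls. The mean difference of the disomic members stayed above 0 under all settings, at 0.131 to 0.216 in cortex, 0.038 to 0.143 in hippocampus and 0.084 to 0.176 over the animal means, and the lowest of each was without animal 87. Of 76 single-gene differences 16 changed sign in at least 1 setting. Without animals 60 and 64 the cortical difference was 0.16 for Mx2, 0.05 for Stat2 and -0.0 for Irf2bp2, and the hippocampal one 0.02 for Gbp2 and 0.05 for Ddx58. With array weights it was 0.1 for Mx2, 0.07 for Stat2 and -0.0 for Irf2bp2 in cortex, and 0.01 for Xaf1 and 0.04 for Ddx58 in hippocampus. Quantile normalization gave 0.07 for Mx2, -0.01 for Adar and -0.01 for Cmpk2 in cortex and -0.01 for Parp14 in hippocampus. Median centring gave 0.01 for Irf1 and 0.01 for Ddx58 in hippocampus. The cause was not tested. With single animals left out, the cortical range was -0.08 to 0.08 for Mx2, -0.19 to 0.07 for Zbp1, -0.07 to 0.05 for Stat2, -0.01 to 0.05 for Adar, -0.01 to 0.14 for Irgm1, -0.02 to 0.11 for Cmpk2, -0.19 to 0.03 for Socs3 and -0.01 to 0.09 for Irf2bp2. The hippocampal range was -0.12 to 0.02 for Gbp2, -0.07 to 0.04 for Xaf1, -0.04 to 0.02 for Irf1, -0.09 to 0.1 for Ddx58, -0.08 to 0.24 for Ifit1, -0.04 to 0.22 for Usp18, -0.01 to 0.14 for Iigp1 and -0.05 to 0.07 for Parp14. Over all named genes the number called was 1 in cortex, 23 in hippocampus and 11 in the animal means, and 32, 37 and 52 without animals 60 and 64, with no member among them.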
